A study of Mus musculus with 2 samples.

Results

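The Sox genes encode transcription factors that share the HMG box, the DNA-binding domain first seen in the testis-determining factor SRY. They were followed here in RNA-seq of cells labelled as intestinal stem cells of the mouse small intestine. The 10 Sox genes were chosen by name, as the table rows with the symbols Sox2, Sox4, Sox5, Sox6, Sox7, Sox9, Sox12, Sox13, Sox18 and Sox21, out of 18067 genes with values. The table held 17 Sox rows in all, and the other 7 reached at most 1.23 TPM (a length-corrected share of all transcripts, scaled to sum to 1000000). There were 2 groups with 1 library each, of the genotypes circBtnl1 wild-type and circBtnl1 knockout, where circBtnl1 is a circular RNA named after the gene Btnl1. Age, strain and sex, the way in which the cells were isolated, and the number of mice behind a library were not given in the sources used here. With 1 library per group, differences compare 2 libraries, without replicate spread, test or p-value.

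SOX proteins bind the minor groove of DNA through the HMG box, bend it, and usually act together with a partner factor. The family is divided into groups by sequence, among them SoxB, SoxC, SoxD, SoxE and SoxF, whose members often stand in for each other. In the gut, Sox9 is expressed in the proliferating crypt under Wnt control and is needed for Paneth cells, and Sox2 marks the foregut, where oesophagus and stomach form, whereas the intestine is specified by Cdx2.

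The SoxB genes among the 10 are shown first by the bases just upstream of the RefSeq start, because Sox2 was the single member past the 2-fold threshold and Sox21, also of group SoxB, was not. Both stretches are 250 bases long, from RefSeq on build GRCm38.p6, written 5′ to 3′ on the strand of the gene. Capitals mark the letters of a GC box (GGGCGG) or a CCAAT box, each searched on both strands with overlaps allowed.

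Sox2, chr3:34649745-34649994, plus strand: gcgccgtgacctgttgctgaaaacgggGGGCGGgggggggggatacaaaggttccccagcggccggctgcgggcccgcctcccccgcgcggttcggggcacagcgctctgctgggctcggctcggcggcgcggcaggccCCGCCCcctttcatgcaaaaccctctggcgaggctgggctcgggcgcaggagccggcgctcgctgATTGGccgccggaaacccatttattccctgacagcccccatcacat

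Sox21, chr14:118237031-118237280, minus strand: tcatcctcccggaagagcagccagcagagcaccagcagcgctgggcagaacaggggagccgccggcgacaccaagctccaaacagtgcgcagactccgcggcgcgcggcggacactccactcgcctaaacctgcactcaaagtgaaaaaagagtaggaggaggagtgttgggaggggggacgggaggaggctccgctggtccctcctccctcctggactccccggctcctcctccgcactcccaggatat

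The Sox2 stretch held 2 GC boxes and 1 CCAAT box, and the Sox21 stretch held 0 of either. Of 32851 RefSeq upstream stretches of the same length, 32.7% held a GC box and 33.9% a CCAAT box. The letters of a TATA box (TATAAA), a TCF and LEF core (TTTGAT), an AP-1 element (TGANTCA) and a SOX core (ACAAT), also searched on both strands, were in neither stretch. These letters were in 12.4%, 10.6%, 6.75% and 27.7% of all stretches. G and C made up 72% of the Sox2 and 65.2% of the Sox21 stretch, against a median of 52.4%. Among the other members, the Sox12 stretch held 3 GC boxes and 1 CCAAT box, and the Sox4 stretch 4 CCAAT boxes. Sox6 had several stretches, with up to 4 GC boxes or 3 CCAAT boxes in a stretch. The Sox13 and Sox5 stretches held 0 of either, and none of these genes was past 2-fold. GENCODE M21 places the start of Sox2 further downstream, at base 34650405 of chromosome 3, and such matches describe letters, not bound sites.

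Sox2 was the member that differed most between the libraries. Its level was 0.26 TPM in wild-type and 9.44 TPM in knockout RNA, a ratio of 36.3. Sox2, a SoxB1 factor, sustains pluripotent cells and neural progenitors and directs the foregut. From an estimated depth of 18750000 reads for wild-type and 16000000 for knockout RNA, these values stand for about 6 (5.81) and 188 reads, so the size of the ratio rests on a few wild-type reads. The log2 ratio, with 0.1 TPM added to both values, was 4.73, which ranked 215 among the 12666 measured genes, and 1.69% of them had a higher one. A gene was called measured where its 2 values averaged 1 TPM or more. Sox2 (chromosome 3, 34649995 to 34652461, RefSeq on GRCm38.p6) is a single-exon gene inside the span of the long noncoding RNA Sox2ot on the same strand. Sox2ot has no exon in the GENCODE span of Sox2, and its RNA was not analysed here. No other gene of the table (0) lay within 500 kb of Sox2.

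Sox9, the SoxE factor of intestinal crypts, was at 21.3 TPM in wild-type and 39.2 TPM in knockout RNA. The knockout value was 1.84-fold higher, under the 2-fold threshold. The SoxC factor Sox4, known in the mouse intestine for enteroendocrine and tuft cell formation, stood at 11.8 and 19.8 TPM, 1.68-fold higher in the knockout library. Sox21, a SoxB2 factor that acts mainly as a repressor and can oppose Sox2, stood at 2.63 and 4.14 TPM, 1.57-fold higher. These 3 genes stood for about 797, 510 and 90.5 estimated reads in wild-type RNA and 1306, 765 and 127 in knockout RNA. All 3 were thus higher in knockout RNA by less than 2-fold.

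Sox13 went the other way and was the most abundant Sox gene of wild-type RNA. It was at 46.2 TPM in wild-type and 31.7 TPM in knockout RNA, 1.46-fold lower. Sox13 is a SoxD factor known from gamma-delta T cells. Of 13 measured markers of T cells and natural killer cells, 5 were lower and 0 higher in knockout RNA by 2-fold or more, where 5.25% of all 12666 measured genes were lower and 23.1% higher by as much. Their summed level went from 111 to 46.6 TPM. The highest marker of that list was Gzma in wild-type RNA, at 22.1 TPM, and Cd7 in knockout RNA, at 7.34 TPM. Markers of other blood cells were lower as well, with myeloid markers at a sum of 44.1 and 17.2 TPM (4 of 9 measured lower, 0 higher) and erythroid markers at 278 and 12.2 TPM (4 of 4 measured lower). The part of these cells in the Sox13 difference was not tested.

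The remaining SoxC and SoxD genes were low. Sox6, which works with Sox5 and Sox9 in cartilage, stood at 1.18 and 1.54 TPM in wild-type and knockout RNA. Sox12, a SoxC factor, stood at 1.15 and 1.34 TPM. Both libraries were thus close for these genes, with ratios of 1.31 and 1.17. Sox5 stood at 0.11 and 0.19 TPM, under the floor of 1 TPM.

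Both SoxF members, Sox7 and Sox18, which are factors of endothelial cells, were near 0. Sox7 was at 0.10 TPM in wild-type and 0.14 TPM in knockout RNA, about 3 (2.99) and 4 (3.72) estimated reads. Sox18 stood at 0.07 TPM in both, about 1 read each (1.03 and 0.91). No fold is drawn from the values of Sox7 and Sox18, which rest on so few reads. Endothelial markers were low as well, with 5 of 16 measured. Pecam1 stood at 0.98 and 1.10 TPM, Cdh5 at 0.13 and 0.20 TPM, and Erg at 0.11 and 0.12 TPM. The one abundant gene of that list was Ecscr, at 20.0 and 19.0 TPM, and Eng, with the highest ratio, stood at 0.47 and 2.89 TPM.

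**Figure D1:**
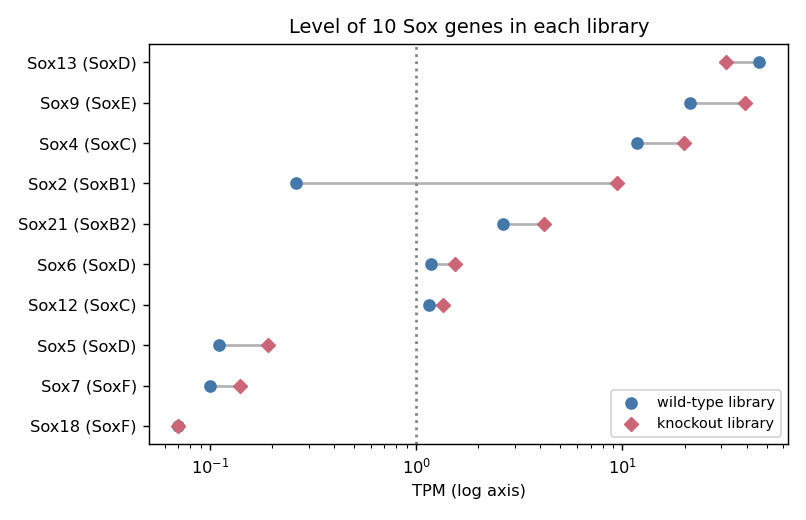
Level of each of the 10 Sox genes in TPM on a log axis, with the wild-type library as a circle and the knockout library as a diamond, 1 library each, and the Sox group in parentheses. The dotted line marks 1 TPM. Sox2 spans 0.26 to 9.44 TPM, while Sox18 lies at 0.07 TPM in both libraries.

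Of the 10 genes 7 were measured, and 3 (Sox5, Sox7 and Sox18) fell below the floor. Among the 7 measured, 1 gene, Sox2, was higher in knockout RNA by 2-fold or more and 0 were lower by as much. Over all 12666 measured genes, 23.1% were higher and 5.25% lower by 2-fold or more. The Sox share of 14.3% rests on 1 gene and has no fixed place against the share of all genes, which was 13.3% higher and 10.4% lower when the libraries were scaled by a trimmed mean of gene ratios, with the Sox count still 1. Among measured genes with a mean under 5 TPM, where Sox2, Sox21, Sox6 and Sox12 lie, the shares were 41.2% higher and 8.38% lower. Among those of 5 to 100 TPM, where Sox13, Sox9 and Sox4 lie, 20.7% were higher and 3.64% lower. At a threshold of 1.5-fold, chosen after the values were seen, 4 Sox genes (Sox2, Sox9, Sox4 and Sox21) were higher and 0 lower, against 40.1% and 10.6% of all measured genes.

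The median measured gene was itself higher in the knockout library, by 0.39 on the log2 scale. The 7 Sox genes had a median log2 ratio of 0.64, or 0.50 over the 6 without Sox2. With that shift taken off, the log2 ratio was 4.34 for Sox2, 0.49 for Sox9, 0.36 for Sox4 and 0.24 for Sox21. It was -0.03 for Sox6 and -0.19 for Sox12, so the direction of these genes flipped. For Sox13 it was -0.93, and 88.6% of all measured genes had a higher ratio. Sox2, Sox9, Sox4 and Sox21 thus lay above the median gene, and Sox6, Sox12 and Sox13 below it.

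**Figure D2:**
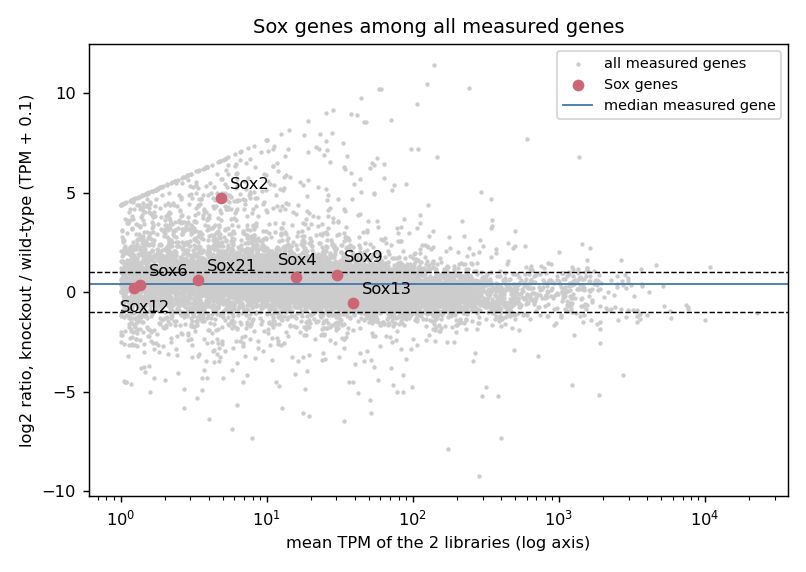
The log2 ratio of knockout to wild-type (TPM + 0.1) on the y axis against the mean TPM of the 2 libraries on a log x axis, for 12666 measured genes in grey and the 7 measured Sox genes in red. Dashed lines mark a 2-fold difference and the blue line the median gene at 0.39. Sox2 stands at 4.73, and the other Sox genes lie between the dashed lines.

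The order of the Sox genes differed between the libraries. The 10 genes summed to 84.7 TPM in wild-type and 107.6 TPM in knockout RNA, and to 84.5 and 98.2 TPM without Sox2. Sox13 held 54.5% of the wild-type and 29.5% of the knockout sum, and Sox9 held 25.1% and 36.4%. Sox13 stood 2.17-fold above Sox9 in wild-type RNA, and Sox9 stood 1.24-fold above Sox13 in knockout RNA. Sox4 ranked 3 in both, with 13.9% and 18.4%. Sox2 ranked 7 in wild-type RNA, with 0.307% of the sum, and 4 in knockout RNA, with 8.77%, above Sox21. Whether genes that neighbour each other in this order differ beyond the spread between mice could not be told from 1 library each.

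**Figure D3:**
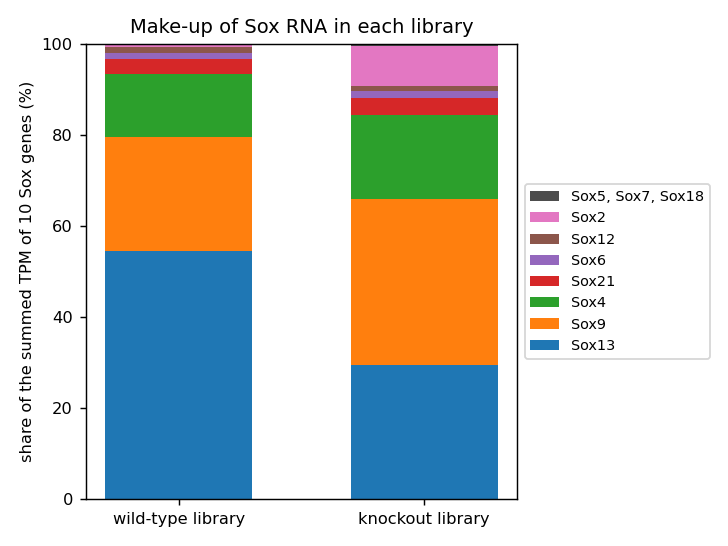
Share of the summed TPM of 10 Sox genes held by each gene, in percent, stacked for the wild-type and the knockout library, 1 library each. The Sox13 share is 54.5% and 29.5%, the Sox9 share 25.1% and 36.4%, and the Sox2 share 0.307% and 8.77%. The band for Sox5, Sox7 and Sox18 is barely visible.

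Beyond the family, other marker genes bear on the labels. Several small intestinal genes were at or near 0, with Sis at 0.05 and 0.29 TPM, Lct at a listed 0 and 0.04 TPM, and Apoa4 at a listed 0 and 0.07 TPM in wild-type and knockout RNA. Colon markers were abundant, with Car1 at 6272 and 15252 TPM and Hoxb13 at 429 and 119 TPM. By 2-fold or more, 1 of 10 measured colon markers (Car1) was higher and 5 were lower, against 23.1% and 5.25% of all measured genes. Stem cell markers were mostly present, with 15 of 17 measured and a sum of 557 and 703 TPM, led by Aqp4 at 234 and 257 TPM and Prom1 at 120 and 150 TPM. Axin2, a Wnt target, stood at 16.9 and 19.3 TPM. Within that list Lgr5 was low, at 3.13 and 1.55 TPM, and Olfm4 stood at 0.20 TPM and a listed 0. Of 10 measured goblet cell genes 0 were higher and 3 lower by 2-fold or more, against 23.1% and 5.25% of all measured genes. Among them Zg16 stood at 8315 and 3413 TPM, Clca1 at 4098 and 4130 TPM and Spink4 at 1805 and 2727 TPM. Not every enterocyte gene was low, with Fabp2 at 135 and 757, Slc15a1 at 45.6 and 8.6 and Alpi at 42.6 and 33.7 TPM. Among 8 measured enterocyte markers 2 were higher and 4 lower by 2-fold or more, against the same shares of all measured genes. The labelled organ was thus not borne out by several of its defining markers, and those of the labelled stem cells were mixed. Fibroblast and smooth muscle markers summed to 73.7 and 323 TPM. Of 9 measured genes 5 were higher and 2 lower by 2-fold or more, against the same 23.1% and 5.25% of all measured genes. The higher ones included Vim at 20.9 and 167 TPM and Col1a2 at 3.76 and 64.4 TPM. Other collagen genes of the list did not follow Col1a2, with Col1a1 at 7.95 and 8.05 TPM and Col3a1 at 5.73 and 3.18 TPM. The 2 lower were the muscle genes Acta2, at 4.06 and 0.81 TPM, and Des, at 1.77 and 0.52 TPM. The part of the cells behind this list in the Sox differences was not tested. In bulk RNA, fewer cells of a type and less RNA per cell cannot be told apart. Btnl1 itself stood at 59.3 and 65.4 TPM, and this value does not separate linear from circular RNA.

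Stomach and oesophagus markers, tied to Sox2 in the foregut, were mostly below the floor, with 2 measured of 11 that had values and neither past 2-fold. The keratin gene Krt5 stood at 39.3 and 44.4 TPM and Krt13 at 12.6 and 8.14 TPM, whereas the gastric claudin gene Cldn18 was listed at 0 in both libraries. Trp63, the master factor of basal cells, stood at 0.18 and 0.22 TPM. The intestinal factor Cdx2 stood at 146 and 222 TPM and Cdx1 at 590 and 389 TPM, and of 8 measured intestinal identity factors 0 were past 2-fold in either direction. Pou5f1, the partner of Sox2 in pluripotent cells, was listed at 0 in both libraries, and Nanog stood at 0.03 and 0.92 TPM. Glial markers that could accompany Sox2 in enteric glia were near 0, with S100b at 0.06 and 0.21 TPM. Of the 9 glial markers with values only Erbb3, which epithelial cells also express, was measured, at 70.6 and 45.1 TPM. That list did not include Sox10, a Sox gene outside the 10, which stood at 0.94 and 1.23 TPM, just above the floor. Which cells the Sox2 RNA came from was not tested.

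Paneth, enteroendocrine, tuft and stem cell genes are read against all measured genes, of which 23.1% were higher and 5.25% lower by 2-fold or more. The table held 9 Paneth cell markers, and of the 5 above the floor, 3 were higher and 1 lower by 2-fold or more (median log2 ratio 1.33, but 0.0 over all 9). The antimicrobial ribonuclease gene Ang4 stood at 583 and 2679 TPM and the protease gene Mmp7 at 9.29 and 1.10 TPM, while lysozyme Lyz1 was at 0.87 and 0.31 TPM and the defensin gene Defa24 at 1.10 TPM and a listed 0. Of 15 measured stem cell markers 3 were higher and 1 lower (median 0.19), near the share of all genes, with Cd44 at 14.5 and 80.2 TPM. Enteroendocrine genes had 5 of 8 measured members at least 2-fold higher and 0 lower (median 1.16), such as Chga at 42.9 and 93.3 TPM and the fate factor Neurod1 at 0.64 and 3.74 TPM. Tuft cell genes had 2 of 10 higher and 1 lower (median -0.36), with the tuft cell master factor Pou2f3 at 1.20 and 0.84 TPM. Most measured enteroendocrine and tuft genes had a mean under 5 TPM, where 41.2% of measured genes were higher and 8.38% lower. The median of all measured genes was 0.39, so the enteroendocrine list lay above it and the stem and tuft lists below it, while the place of the Paneth list turned on the floor.

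Known targets and partners of SOX proteins were mixed. Cartilage genes driven by SOX9 with SOX5 and SOX6 lay below the floor, with 0 of 9 measured, and Col2a1 at 0.02 and 0.19 TPM. Of 5 measured genes among other known SOX targets, 3 were at least 2-fold higher and 0 lower, against 23.1% and 5.25% of all measured genes. The shares were 20.7% and 3.64% among genes of 5 to 100 TPM, where these 3 lie, and 41.2% and 8.38% under 5 TPM. The intermediate filament gene Nes stood at 0.41 and 12.2 TPM, the adhesion gene Vcam1 at 0.06 and 14.3 TPM, and Tead2 at 6.77 and 17.2 TPM, while Egfr stood at 17.9 and 9.04 TPM. Of 6 measured partners 3 were higher and 0 lower, read against the same shares, and their median log2 ratio of 1.18 became -0.16 under a floor of 5 TPM. Nr5a1, a partner of SOX9 in the gonad, was listed at 0 in wild-type RNA and stood at 3.29 TPM in knockout RNA. Rbpj, the DNA-binding factor of Notch signalling, stood at 12.6 and 160.4 TPM, and Ctnnb1, which encodes beta-catenin, at 386 and 346 TPM. Among the TCF and LEF factors, which carry a related HMG box and act in Wnt signalling, Tcf7l2 stood at 101 and 46.1 TPM and Lef1 at 0.28 and 3.8 TPM.

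**Figure D4:**
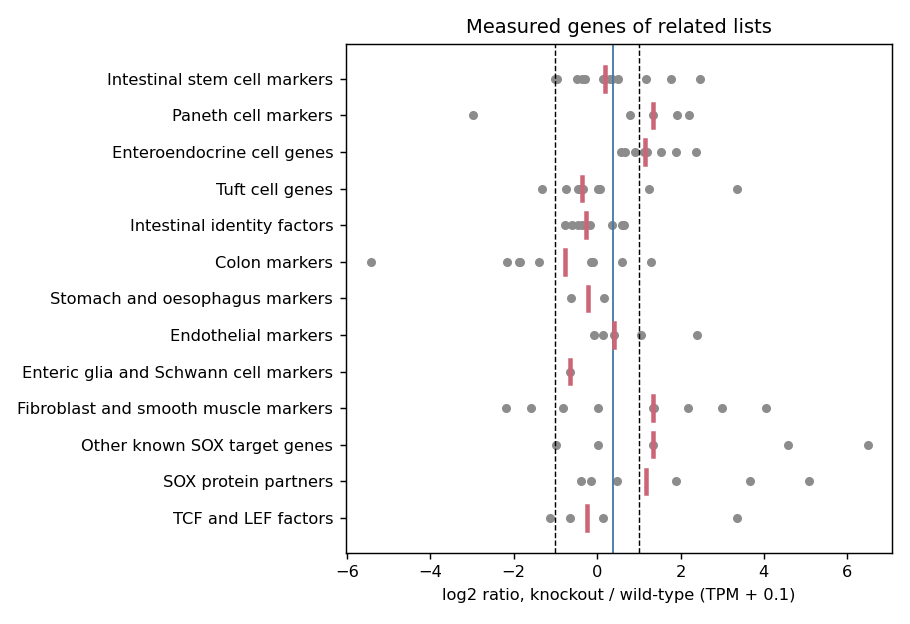
The log2 ratio of knockout to wild-type (TPM + 0.1) of each measured gene (grey points) in 13 lists related to Sox factors and the cells they act in, with the median of each list as a red bar. Dashed lines mark a 2-fold difference and the blue line the median measured gene at 0.39. Paneth and enteroendocrine medians of these measured genes stand at 1.33 and 1.16, tuft cell genes at -0.36.

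In position and structure the 10 genes had little in common. Sox12 and Sox18 lie on chromosome 2 and Sox7 and Sox21 on chromosome 14, each pair far apart, and the other genes lie on 6 different chromosomes. Sox2, Sox4 and Sox21 have 1 exon, and Sox9 has 3. Sox4 shares 2616 exonic bases with Gm26735, Sox5 shares 1330 with Sox5os1 and Sox21 shares 713 with Gm4675, each on the opposite strand. The sources used here do not say whether strand was kept, so reads from these partners cannot be told apart from those of Sox4, Sox5 and Sox21. Sox9 had 1 measured gene within 500 kb, Slc39a11, and Sox4 had Cdkal1, with log2 ratios of -0.21 and 1.50.

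**Figure D5:**
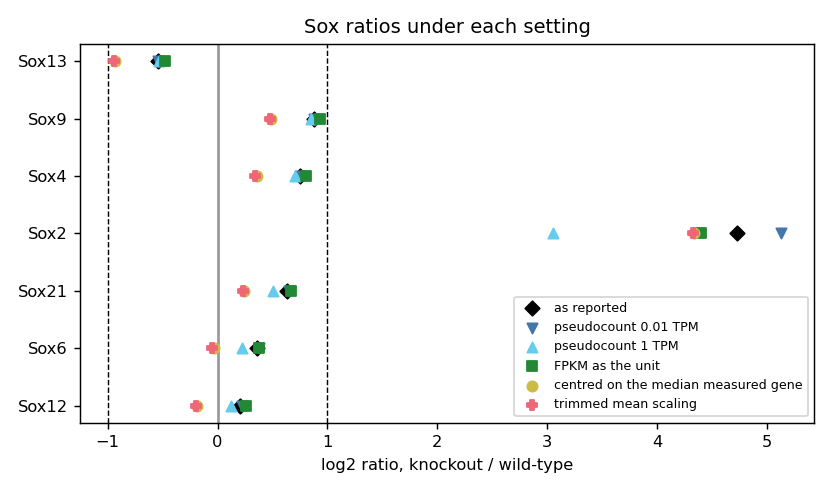
The log2 ratio of knockout to wild-type for the 7 measured Sox genes as reported (black diamonds) and under 5 other settings of pseudocount, unit and scaling. Dashed lines mark a 2-fold difference. Sox2 ranges from 3.05 to 5.13 and stays past 2-fold, Sox13 stays below 0, and Sox6 and Sox12 cross 0 under both rescalings.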

How the data were processed

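Total RNA was extracted with a micro-scale kit, made into libraries with an MGIEasy kit and sequenced on BGISEQ-500, per the labels. The authors deposited 1 table holding FPKM and TPM per library, per the file headers, with 2 decimals. In the submitters' processing notes stand mm10, Bowtie2, RSEM and DESeq2, with no version or role. TPM is a share of a library, so very abundant genes lower all others.

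Of 18068 lines 1 held no values, and 0 value columns were unused. Ratios were log2((knockout TPM + 0.1)/(wild-type TPM + 0.1)), which understates differences of low genes. Plain folds are ratios of TPM. Genes averaging 1 TPM or more counted as measured, and a 2-fold difference is a description. Depth was estimated from single-transcript genes whose low values should be whole reads. At the best depth 62.4% of 133 genes (wild-type) and 59.1% of 164 (knockout) lay within 0.15 of a whole read. Chance gives 30% at a depth fixed beforehand. The depth was instead picked for the highest share, so the contrast with 30% is overstated. Depths within 5 points of the best share ran from 18750000 to 21250000 and from 16000000 to 19500000 reads. Estimated reads carry this error, and no counting interval was computed. Identifiers matched RefSeq for 99.3% of genes, and upstream sequences were found for 7 of the 10 Sox genes. Steps were tested on simulated data (Python 3.11.15, pandas 2.3.3).

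The members and gene lists were chosen with earlier results of these data known. Named genes were the 10 members, Btnl1 and, per list, the most abundant gene and the extremes. Others, such as Cldn18, Cdh5, Erg, Trp63, Nanog, Col2a1, S100b, Prom1, Axin2, Lyz1, Defa24, Tead2 and Pou2f3, were named as examples after their values were seen, and not every gene the rule takes is printed.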

Additional observations from a re-analysis of the deposited data

How the results depend on the processing

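Results were recomputed under 7 planned settings and 1 added after the values were seen. The count of Sox genes at least 2-fold higher was 1 in the planned settings except under a floor of 5 TPM, where it was 0 because Sox2 has a mean of 4.85 TPM, and it was 4 at the added 1.5-fold threshold. The count at least 2-fold lower was 0 throughout. The median log2 ratio of the Sox genes, 0.64 as reported, was 0.24 when centred on the median gene and 0.23 under trimmed mean scaling, which subtract shifts of 0.39 and 0.40. Trimmed mean scaling also moved the share of higher genes among all genes past 2-fold from 81.5% to 56.2%. The log2 ratio of Sox2 ranged from 3.05 (pseudocount 1 TPM) to 5.13 (0.01 TPM), that of Sox9 from 0.47 to 0.93, of Sox4 from 0.34 to 0.80 and of Sox13 from -0.94 to -0.48. Of 50 member values 25 moved by 0.25 or more and 0 of those past 2-fold changed sign. The share of all measured genes at least 2-fold higher went from 23.1% to 13.5% (centred) and 13.3% (trimmed mean), and that lower from 5.25% to 10.2% and 10.4%. Of 138 list medians 63 moved by 0.25 or more without reversing a 2-fold difference, or crossed the 2-fold threshold, and 13, from 9 of 20 lists, changed sign. Of medians past 2-fold, SOX protein partners became -0.16 under a floor of 5 TPM, and lymphatic endothelial markers -0.94 with no floor. Of the others, stem cell markers became -0.20 and -0.22 and enteric neuron markers -0.22 and -0.23 under both rescalings. Tuft genes became 0.08 and endothelial markers -0.07 under a floor of 5 TPM, and endothelial markers also fell just under 0 in FPKM and under trimmed mean scaling. With no floor enterocyte markers became 0.63, stomach markers 0.37 and glial markers 0.72, and Paneth markers 0.0. The floors change which genes are counted. Without replicates no setting speaks to the spread between mice. No paired analysis was possible because each group has 1 library.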
